A study of Mus musculus with 15 samples.

Results

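The nectins and the SynCAMs are 2 small families of immunoglobulin-type adhesion molecules, and 7 of their genes were followed across the whole series: Pvrl1, Pvrl2 and Pvrl3 (nectins 1 to 3, now named Nectin1 to Nectin3) and Cadm1 to Cadm4 (SynCAMs 1 to 4). The genes were chosen by symbol, and all 7 were found among the 32657 gene rows of the count data. They were selected on a series whose differences by region, fraction and genotype were already known, so the adjusted p-values given for them describe each gene within a fit over all genes and are no independent support for the families. The 15 RNA-seq libraries fell into 6 groups of pooled dentate gyrus (DG) tissue from mice aged 8 to 12 weeks. Wild type (WT) mice carried the Drd3-Cre KI198 driver and Rosa26-fsTRAP, which puts an EGFP-tagged ribosomal protein L10a into cells with Cre. Conditional knockout (cKO) mice carried both of these and Htr4-Floxed, in which Cre removes exon 5 of the serotonin receptor 5-HT4R gene Htr4. Ventral DG (vDG) gave input RNA from whole tissue (3 WT and 2 cKO libraries) and RNA from ribosomes of the tagged cells, by TRAP immunoprecipitation (IP; 3 WT and 2 cKO), whereas dorsal DG (dDG) gave input RNA alone (3 WT and 2 cKO). The driver marks granule cells and hilar mossy cells in the DG, and pyramidal cells of the CA fields in part, so the IP is not the RNA of 1 cell type. The records count 3 mice in each IP pool and 2 in each input pool. The study's methods instead describe a male and a female mouse for every biological replicate, and state that input RNA was taken from part of the homogenate before the IP, so vDG IP and input libraries share material. The records name whole cortex as the source of the input RNA in 1 field and ventral or dorsal DG in the others.

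Nectins sit at puncta adherentia junctions, the mechanical contacts beside the synapse, and are best known in the hippocampus at the mossy fibre synapse, where the axons of dentate granule cells meet CA3 dendrites. A nectin on one membrane binds a nectin on the other, and the pairing of nectin-1 with nectin-3 is stronger than that of either with itself. Inside the cell the nectins bind the scaffold afadin (gene Mllt4 in these data), which links them to actin and to N-cadherin junctions. SynCAMs span the synaptic cleft and also bind each other in preferred pairs, SynCAM 1 with 2 and SynCAM 3 with 4, and inside the cell they bind PDZ scaffolds of the CASK and MPP type and band 4.1 proteins. SynCAM 4 is also a molecule of glia and myelin.

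At the very end of the protein a short PDZ-binding tail docks to these scaffolds. The final 30 coding bases of each gene's principal transcript (GENCODE M21, GRCm38) are shown for that reason, 5′ to 3′, with the last 4 codons before the stop codon in capitals.
Pvrl1: ttcatttccaagaaaGAGTGGTATGTGtag
Pvrl3: gtaatttccaggaggGAGTGGTATGTCtaa
Pvrl2: ttttttgtgtcacggGCCATGTATGTGtga
Cadm1: tccgaagaaaagaaaGAGTACTTCATCtag
Cadm2: gccgaagagaaaaaaGAGTATTTCATTtaa
Cadm3: ggggatgacaagaagGAATATTTCATCtag
Cadm4: cacaaacggaaagaaGAATTCTTCATTtga
Over the 12 capital bases, Pvrl1 and Pvrl3 had 11 in common, and Pvrl2 had 8 in common with Pvrl1 and 7 with Pvrl3. The SynCAM genes had 9 or 10 in common in every pair. Between a nectin and a SynCAM gene 3 to 7 were the same. Pvrl3 had 7 in common with Cadm1 and with Pvrl2 alike, so these bases do not fully separate the families. Some transcripts end elsewhere: 1 of the 6 complete coding transcripts of Pvrl3, 1 of the 2 of Pvrl2 and 5 of the 7 of Cadm1 carried the end shown, and counts per gene do not separate them.

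The genes lie apart in the mouse genome (GRCm38). Pvrl1 (ENSMUSG00000032012) and Cadm1 (ENSMUSG00000032076) are both on the plus strand of chromosome 9, at chr9:43743984-43807461 and chr9:47530173-47857637. Pvrl2 (ENSMUSG00000062300) is at chr7:19716644-19750483 on the minus strand and Cadm4 (ENSMUSG00000054793) at chr7:24482023-24504539 on the plus strand. Pvrl3 (ENSMUSG00000022656) and Cadm2 (ENSMUSG00000064115) are on the minus strand of chromosome 16, at chr16:46387706-46498525 and chr16:66655421-67620908. Cadm3 (ENSMUSG00000005338) is at chr1:173333258-173367695 on the minus strand. Of their annotated exons, 135 bp of Pvrl2, 256 bp of Cadm2 and 361 bp of Cadm3 overlap another gene (Gm20512, 1700010K23Rik and Ackr1), so reads there are uncertain.

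The libraries held 19039295 to 30451430 counts on genes. Ventral dentate markers were higher in vDG than in dDG input of WT mice for 6 of 6 genes, and dorsal markers were lower for 3 of 5, as the region labels state. Interneuron markers were depleted from the WT IP for 10 of 12 genes, astrocyte markers for 11 of 12, oligodendrocyte markers for 11 of 12 and microglia markers for 12 of 12, while 3 of 12 granule cell markers were enriched. Of the mossy cell markers 1 of 7 was depleted and of the CA pyramidal markers 1 of 10, and none of either was enriched. Htr4 was counted over the whole gene and was higher in the cKO, at 26.7 to 29.8 counts per 1000000 counts (CPM) in the cKO IP and 13.6 to 16.0 CPM in the WT IP, which does not check the removal of exon 5.

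Cadm2 was the most abundant member and Pvrl2 the least in all 6 groups. Levels between genes were compared per length, as CPM scaled by the trimmed mean of M values (TMM) and divided by the kilobases of annotated exon. That length joins the exons of all GENCODE M21 transcripts of a gene, 12747 bp for Pvrl3 and 5653 bp for Pvrl1. The order depends on it: by mean CPM in WT vDG input Pvrl3, at 64.5, was above Pvrl1, at 44.4. In WT dDG input the mean was 67.7 ± 3.54 CPM per kb (SD, n = 3) for Cadm2, 22.3 ± 2.47 for Cadm3, 6.40 ± 0.685 for Cadm1, 3.88 ± 0.743 for Pvrl1, 3.70 ± 0.214 for Cadm4, 1.47 ± 0.257 for Pvrl3 and 0.112 ± 0.0418 for Pvrl2. Pvrl1 and Cadm4 overlapped in this order, and no other neighbours did. In WT vDG input the order was Cadm2 at 43.0 ± 3.85 CPM per kb, Cadm3 at 30.4 ± 1.48, Cadm1 at 8.73 ± 0.594, Pvrl1 at 7.86 ± 1.61, Cadm4 at 5.17 ± 0.856, Pvrl3 at 5.06 ± 0.345 and Pvrl2 at 0.207 ± 0.0156 (SD, n = 3). There the ranges of Cadm1 and Pvrl1 overlapped, as did those of Cadm4 and Pvrl3. In the WT IP Pvrl1 stood at 10.9 ± 0.848 CPM per kb, above Cadm1 at 8.78 ± 0.608, and Cadm4 stood sixth, at 2.88 ± 1.29 (SD, n = 3). Cadm2 and Cadm3 overlapped only in the WT IP among the 6 groups, at 40.1 ± 5.30 and 33.7 ± 3.22 CPM per kb.

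**Figure D1:**
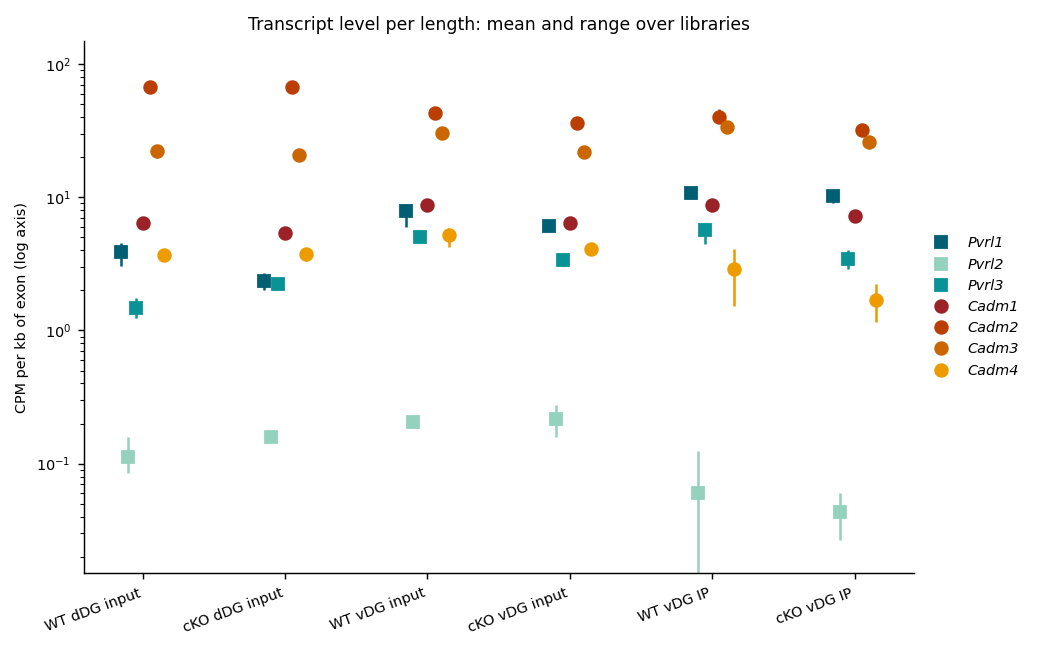
Mean level of each gene per kilobase of exon (log axis) in the 6 groups, with squares for nectins, circles for SynCAMs and lines from the lowest to the highest library. Cadm2 is at the top and Pvrl2 at the bottom of every group; the line of Pvrl2 in the WT IP is drawn to the axis because 1 library held 0 counts.

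Pvrl2 was close to the limit of detection. It held 18, 21 and 20 counts in WT vDG input, 7, 6 and 17 in WT dDG input, and 5, 11 and 0 in the WT IP. In the cKO it held 25 and 15 counts in vDG input, 14 and 12 in dDG input, and 2 and 5 in the IP. The floor that a count of 0 allows is 3 counts in a library, so the lower cKO IP library was under it. Pvrl2 passed the filter on low counts through 1 group alone for WT vDG against dDG (through vDG), for IP against input in both genotypes (through input) and for cKO against WT in dDG input (through the cKO). A difference there follows in part from the filter, so its folds and p-values are not given, and counts and medians of these comparisons are over the other 6 genes where they say so. Reads were counted without molecular identifiers, and such floors cover counting error only.

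**Figure D2:**
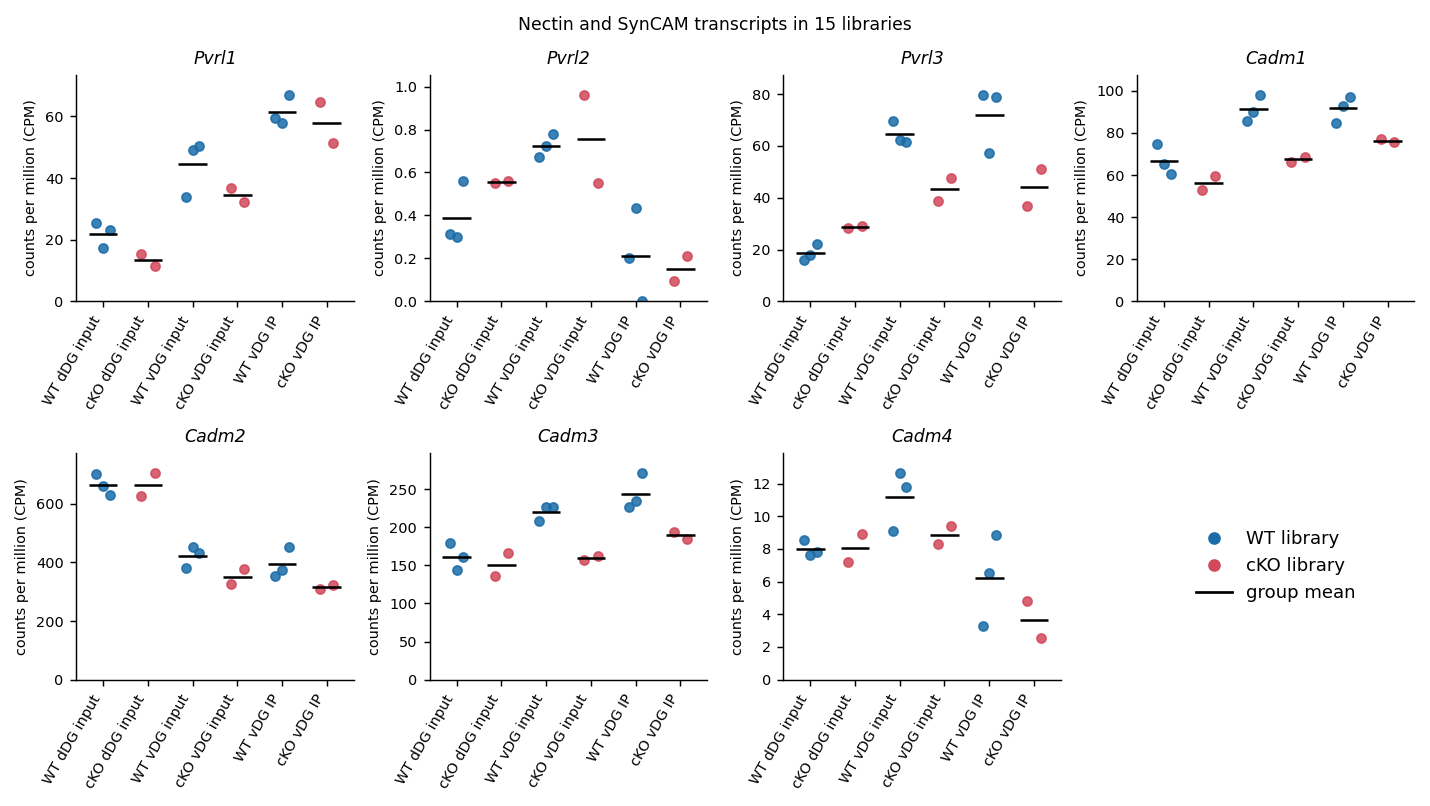
CPM of each gene in every library (points; blue WT, red cKO) with the group mean (black line), on linear axes that start at 0 and differ between genes. Pvrl1 and Pvrl3 are higher in vDG than in dDG, Cadm2 is lower, and Pvrl3 in the cKO lies below WT in both vDG groups and above WT in dDG.

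The dorsoventral comparison asked which transcripts differ along the axis of the DG. In WT input 5 of the 7 genes passed the test, 4 of them higher in vDG (Pvrl3, Pvrl1, Cadm1 and Cadm3) and 1 lower (Cadm2), at an FDR under 0.05 by edgeR's quasi-likelihood test; over all genes 15.3% passed (2365 of 15412). Ventral and dorsal libraries did not overlap for 6 of the 6 genes other than Pvrl2, beside 31.4% of all genes. The median log2 fold change of these 6 was 0.48, beside -0.01 over all genes. In cKO input 3 of 7 passed, Pvrl1 and Pvrl3 higher and Cadm2 lower in vDG, beside 17.0% of all genes, and the median of the 7 was 0.25 beside 0.01. There 4 of 7 did not overlap, beside 58.2% of all genes.

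Pvrl3, the nectin that in the mossy fibre pathway is found on the dendritic side, had the largest dorsoventral difference of the 7 genes in WT. It was at 69.6, 62.4 and 61.6 CPM in WT vDG input and at 15.8, 18.0 and 22.3 CPM in WT dDG input. Every ventral library was above every dorsal one, and the log2 fold change was 1.80 ± 0.14 (SE; adjusted p = 1.78e-07). In the cKO it was at 38.7 and 47.7 CPM in vDG and at 28.2 and 29.1 CPM in dDG. The cKO groups did not overlap either, and the log2 fold change was 0.58 ± 0.13 (adjusted p = 0.0044); without cKO vDG input replicate 2 it was 0.41 and no longer passed (adjusted p = 0.061), nor did it with all groups in one fit (adjusted p = 0.054).

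Pvrl1, its axonal partner at that synapse, was at 33.9, 49.1 and 50.3 CPM in WT vDG input and at 25.5, 17.3 and 23.0 CPM in WT dDG input. The log2 fold change was 1.03 ± 0.17 (adjusted p = 0.000369). In the cKO Pvrl1 was at 36.7 and 32.2 CPM in vDG and at 15.2 and 11.5 CPM in dDG, a log2 fold change of 1.36 ± 0.16 (adjusted p = 3.02e-06). Neither genotype had ventral and dorsal libraries that overlapped.

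Cadm2, which pairs with SynCAM 1 across the cleft, went the other way. It was at 379.7, 453.2 and 431.2 CPM in WT vDG input and at 700.3, 660.4 and 631.1 CPM in WT dDG input, and fell by 0.64 on the log2 scale from dDG to vDG (SE 0.11; adjusted p = 0.000426). In the cKO it was at 325.5 and 377.9 CPM in vDG and at 628.0 and 703.9 CPM in dDG (log2 fold change -0.93 ± 0.12, adjusted p = 7.51e-06). All dorsal libraries were above all ventral ones in both genotypes.

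Cadm1 and Cadm3 had smaller differences in the opposite direction. Cadm3 was at 208.0, 227.0 and 226.3 CPM in WT vDG input and at 179.7, 143.8 and 161.3 CPM in WT dDG input (log2 fold change 0.46 ± 0.11, adjusted p = 0.0086). Cadm1 was at 85.7, 89.9 and 97.9 CPM and at 74.6, 65.1 and 60.6 CPM in the same groups (0.46 ± 0.12, adjusted p = 0.011). The groups did not overlap, but the call of Cadm1 was lost without WT vDG input replicate 3 (adjusted p = 0.063), without WT dDG input replicate 2 (0.058) and without WT dDG input replicate 3 (0.057), and that of Cadm3 without WT dDG input replicate 2 (0.076). In the cKO neither passed, with log2 fold changes of 0.25 ± 0.12 for Cadm1 (adjusted p = 0.16) and 0.07 ± 0.12 for Cadm3 (adjusted p = 0.74).

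The other 2 genes did not pass in either genotype as fitted here. Cadm4 was at 9.09 to 12.6 CPM in WT vDG input and at 7.65 to 8.52 CPM in WT dDG input (log2 fold change 0.50 ± 0.17, adjusted p = 0.061), and passed with library size alone (0.048), no count filter (0.049), the replicate number as a block (0.040) or without WT vDG input replicate 1 (0.028). It was at 0.13 ± 0.20 in the cKO (adjusted p = 0.71). Pvrl2 had a log2 fold change of 0.43 ± 0.56 in the cKO (adjusted p = 0.66), from the few counts given above.

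Ratios of counts within a library need no scaling between libraries and showed the same shift of makeup. Cadm2 over Cadm3 was 1.82, 2.0 and 1.91 in WT vDG input and 3.90, 4.59 and 3.91 in WT dDG input, and 2.08 and 2.33 against 4.63 and 4.25 in the cKO. Cadm3 over Cadm1 ranged from 2.31 to 2.53 in WT vDG input and from 2.21 to 2.66 in WT dDG input, so these ranges overlapped. The summed level of the 3 nectins was 104.2 to 112.7 CPM in WT vDG input and 35.6 to 45.8 CPM in WT dDG input, whereas that of the 4 SynCAMs was 682.5 to 782.7 CPM and 860.9 to 963.1 CPM. The SynCAM sum follows Cadm2, the most abundant of them, and the other 3 had log2 fold changes above 0.

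Markers of other cells moved with region in the same libraries. The summed level of the 12 interneuron markers was 689.8 to 794.3 CPM in WT vDG input and 415.1 to 511.1 CPM in WT dDG input, with 6 of 11 tested genes higher in vDG and none lower. For the 12 CA pyramidal markers it was 304.9 to 351.9 CPM and 135.7 to 174.6 CPM, with 4 of 11 higher and 3 lower, or 107.3 to 108.6 CPM and 81.4 to 98.6 CPM without its most abundant gene, Spock1. For the 8 mossy cell markers it was 345.9 to 443.4 CPM and 247.6 to 289.2 CPM, with 1 of 7 higher and 1 lower. Without Gria3, the most abundant of them, it was 101.2 to 127.8 CPM and 38.0 to 43.3 CPM. The 12 granule cell markers summed to 1775 to 1991 CPM and to 2786 to 2905 CPM, with 9 of 12 lower in vDG. The 12 oligodendrocyte markers summed to 429.0 to 529.9 CPM and to 583.3 to 601.1 CPM, with 6 of 12 lower in vDG and none higher. The 10 choroid plexus markers summed to 25.7 to 30.6 CPM in WT vDG input and to 34.7, 104.3 and 158.1 CPM in WT dDG input. Of 7 tested, 3 were lower in vDG and none higher. The part of these cells in the differences of the nectins and SynCAMs was not tested, and in bulk tissue fewer cells of a type and less RNA per cell cannot be told apart.

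**Figure D3:**
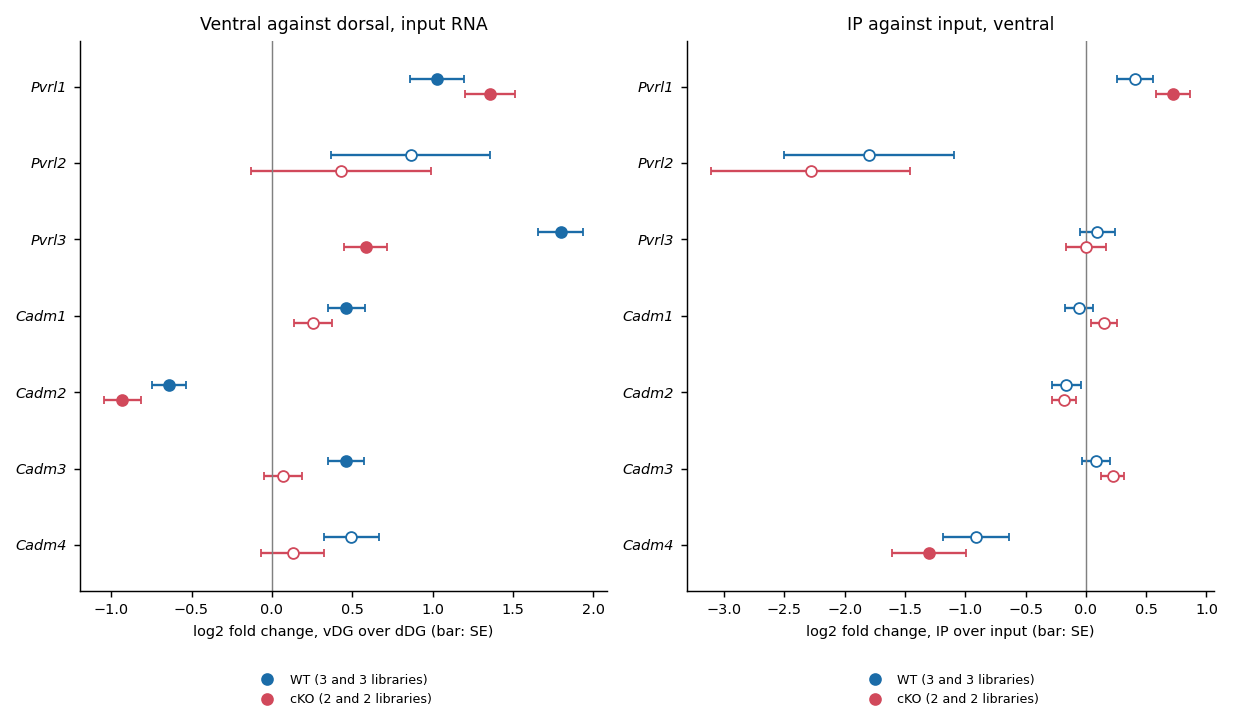
Log2 fold changes with SE (bars) of each gene for vDG over dDG input (left) and for IP over input in vDG (right), in WT (blue) and cKO (red). Pvrl2 passed the filter on low counts through 1 group alone except for region in the cKO. Filled points passed the call rule of that comparison: Pvrl3 and Pvrl1 lie to the right and Cadm2 to the left for region, and Pvrl1 to the right and Cadm4 to the left for the IP, there filled in the cKO alone.

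The IP was compared with input to ask how the families stood in ribosome-bound RNA of the tagged cells. Enrichment was called at a log2 fold change of 0.32 or more and depletion at one under -1, both at an FDR under 0.05. In WT 0 of the 7 genes were called by edgeR, beside 7.72% of all genes enriched and 11.4% depleted; 2 of the 6 other than Pvrl2 had an unadjusted p under 0.05 (Pvrl1 and Cadm4), beside 36.1% of all genes, and DESeq2 called 1, Pvrl1, among 3189 genes. In the cKO Pvrl1 was enriched and Cadm4 depleted, beside 11.4% of all genes enriched and 10.7% depleted. The median log2 fold change of the 6 was 0.02 in WT and 0.08 in the cKO, beside 0.00 and -0.03 over all genes. IP and input libraries did not overlap for 2 of these 6 in WT, beside 41.6% of all genes, and for 5 of 6 in the cKO, beside 65.1%.

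Pvrl1 was at 59.4, 58.0 and 66.9 CPM in the WT IP, above all 3 WT vDG input libraries, with a log2 fold change of 0.41 ± 0.15 (adjusted p = 0.065; 0.041 with all groups in one fit and 0.025 with no count filter). In the cKO IP it was at 64.7 and 51.3 CPM, above both input libraries, with a log2 fold change of 0.72 ± 0.14 (adjusted p = 0.0030). The interaction of genotype with fraction gave 0.35 ± 0.23 on the log2 scale (adjusted p = 1.0), so the enrichment was not shown to differ between genotypes.

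Cadm4 was at 3.28, 6.54 and 8.82 CPM in the WT IP against 9.09, 12.6 and 11.8 CPM in input, and at 4.83 and 2.52 CPM in the cKO IP against 8.29 and 9.43 CPM in input. No IP library reached an input library of its genotype. The log2 fold change was -0.91 ± 0.27 in WT (adjusted p = 0.025, above the depletion limit on the fold change; leaving out 1 library moved it between -1.22 and -0.60) and -1.30 ± 0.31 in the cKO (adjusted p = 0.0085). In WT it was called depleted without WT vDG IP replicate 3 (-1.22, adjusted p = 0.0016), without WT vDG input replicate 1 (-1.02, 0.041) and by library size alone (-1.04, 0.012). The cKO call was lost without cKO vDG IP replicate 2, where the log2 fold change was -0.89, and without cKO vDG input replicate 2 (adjusted p = 0.066).

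Pvrl3 and the 3 abundant SynCAM genes were called in neither genotype. Pvrl3 was at 79.6, 57.4 and 79.0 CPM in the WT IP, a range that held all 3 input libraries (log2 fold change 0.10 ± 0.14, adjusted p = 0.67), and had 0.00 ± 0.16 in the cKO (adjusted p = 0.99). In WT the log2 fold changes were -0.05 ± 0.12 for Cadm1, -0.16 ± 0.12 for Cadm2 and 0.08 ± 0.11 for Cadm3. In the cKO they were 0.15 ± 0.11, -0.18 ± 0.10 and 0.22 ± 0.10. None of these SynCAM values passed (adjusted p from 0.11 to 0.78), and the values nearest 0 changed sign with the scaling: by library size alone Pvrl3 was at -0.04 in WT and -0.17 in the cKO, Cadm3 at -0.05 in WT and Cadm1 at -0.02 in the cKO. In the same WT libraries the interneuron markers summed to 689.8 to 794.3 CPM in input and 282.9 to 349.7 CPM in the IP and the astrocyte markers to 4931 to 5627 CPM and 1440 to 2084 CPM, whereas the CA pyramidal markers summed to 304.9 to 351.9 CPM in input and to 324.7 to 435.2 CPM in the IP.

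The cKO was compared with WT in each of the 3 tissues and fractions. In vDG input Pvrl3 and Cadm3 were lower in the cKO, 2 of the 7 genes at an FDR under 0.05 beside 2.44% of all genes (385 of 15786, of which 368 were lower). The median log2 fold change of the 7 genes was -0.38, beside 0.01 over all genes. In vDG IP 0 of the 6 genes tested passed at an FDR under 0.1 by edgeR, beside 0.420% of all genes; 2 of the 6 had an unadjusted p under 0.05 (Pvrl3 and Cadm3), beside 11.7% of all genes, DESeq2 called 1, Pvrl3, among 353 genes, and Pvrl2 did not pass the filter on low counts. In dDG input 0 of the 7 passed, beside 0.0325% of all genes (5 of 15383); 2 had an unadjusted p under 0.05, Pvrl1 and Pvrl3, beside 12.2% of all genes, and DESeq2 called both, among 188 genes. The medians were -0.30 in vDG IP and, without Pvrl2, -0.05 in dDG input, beside 0.00 and -0.02. Every cKO library was below every WT library for 4 of 7 genes in vDG input and for 4 of 6 in the IP (Pvrl3, Cadm1, Cadm2 and Cadm3 in both), beside 17.1% and 18.3% of all genes. In dDG input this held for 2 of 7, Pvrl1 and Cadm1, beside 15.5% of all genes, and 1 of 7, Pvrl3, was above WT in every cKO library, beside 13.9%.

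Pvrl3 in vDG input went from 69.6, 62.4 and 61.6 CPM in WT to 38.7 and 47.7 CPM in the cKO. Both cKO libraries were below all WT libraries, and the log2 fold change was -0.59 ± 0.14 (adjusted p = 0.025). The call was lost when cKO vDG input replicate 1 (adjusted p = 0.49) or replicate 2 (0.099) or WT vDG input replicate 3 (0.053) was left out, with log2 fold changes of -0.44, -0.76 and -0.62, and also with all groups in one fit (-0.60, adjusted p = 0.077). In the IP it went from 79.6, 57.4 and 79.0 CPM to 37.0 and 51.3 CPM, again with no overlap, a log2 fold change of -0.67 ± 0.18 (adjusted p = 0.19; 0.064 with all groups in one fit and 0.0073 with no count filter). In dDG input it went the other way, from 15.8, 18.0 and 22.3 CPM to 28.2 and 29.1 CPM, with both cKO libraries above all WT libraries and a log2 fold change of 0.61 ± 0.15 (adjusted p = 0.16; 0.037 without WT dDG input replicate 3 and 0.011 with no count filter). The study's own DESeq2 fits called this gene in both regions, in opposite directions. Of all genes tested over both regions together, 3.15% had cKO libraries entirely on opposite sides of WT in vDG and dDG input. The test of the difference between regions, over all 10 input libraries, gave -1.19 ± 0.20 on the log2 scale. Its p ranked as the second lowest among 16306 genes, and the adjusted p was 0.11. No gene passed an FDR of 0.05 in that interaction (0.00% of genes; 1966 had an unadjusted p under 0.05, and DESeq2 called 256, Pvrl3 among them with adjusted p = 9.99e-05). Leaving out 1 library moved Pvrl3's estimate between -1.37 and -1.08 and its adjusted p between 0.0086 and 0.98; it passed without WT dDG input replicate 3, WT vDG input replicate 3 or cKO dDG input replicate 1 (0.0086, 0.041 and 0.044), and with no count filter (8.79e-06).

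Cadm3 in vDG input was at 208.0, 227.0 and 226.3 CPM in WT and at 156.9 and 161.9 CPM in the cKO, which did not overlap (log2 fold change -0.48 ± 0.12, adjusted p = 0.037). The call was lost without either cKO vDG input library (adjusted p = 0.41 without replicate 1 and 0.26 without replicate 2), without WT vDG input replicate 3 (0.11), with scaling by library size alone (0.056) and with the replicate number as a block (0.10). In the IP it was at 226.9, 234.8 and 270.7 CPM in WT and at 193.8 and 185.0 CPM in the cKO (-0.33 ± 0.13, adjusted p = 0.36). In dDG input the genotypes overlapped, at 179.7, 143.8 and 161.3 CPM and at 135.8 and 165.8 CPM (-0.10 ± 0.13, adjusted p = 0.81).

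Cadm1 and Cadm2, which lay below WT in every cKO library of vDG input and of the IP, did not pass edgeR's test in either, but Cadm1 in vDG input was called by DESeq2 (log2 fold change -0.44, adjusted p = 0.017) and by edgeR with no count filter (adjusted p = 0.049) or without WT vDG input replicate 1 (0.042). Cadm1 in vDG input was at 85.7, 89.9 and 97.9 CPM in WT and at 66.4 and 68.6 CPM in the cKO (log2 fold change -0.45 ± 0.13, adjusted p = 0.066), and in the IP at 84.8, 92.9 and 97.3 CPM and at 77.0 and 75.5 CPM (-0.23 ± 0.14, adjusted p = 0.53). Cadm2 had log2 fold changes of -0.27 ± 0.13 in vDG input (adjusted p = 0.32) and -0.28 ± 0.14 in the IP (adjusted p = 0.44). In dDG input Cadm1 was at -0.25 ± 0.13 (adjusted p = 0.45) and Cadm2 at 0.00 ± 0.10 (adjusted p = 0.99).

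Pvrl1 had its largest cKO difference in dDG input, from 25.5, 17.3 and 23.0 CPM in WT to 15.2 and 11.5 CPM in the cKO, with no overlap (log2 fold change -0.72 ± 0.19, adjusted p = 0.17; 0.0037 with no count filter). In vDG input it was at -0.38 ± 0.16 with overlapping libraries (adjusted p = 0.25, or 0.027 at -0.53 without WT vDG input replicate 1) and in the IP at -0.05 ± 0.15 (adjusted p = 0.93). The count ratio of Pvrl1 over Pvrl3 in dDG input was 1.61, 0.959 and 1.03 in WT and 0.540 and 0.394 in the cKO, which did not overlap. It is a ratio of transcripts in bulk tissue, formed from genes whose cKO changes there went opposite ways. How often other pairs of genes differ so was not computed. In vDG input the ratio was 0.487, 0.786 and 0.817 in WT and 0.947 and 0.675 in the cKO, which overlapped. The summed nectin level in dDG input was 35.6 to 45.8 CPM in WT and 41.1 to 43.9 CPM in the cKO.

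Cadm4 had log2 fold changes of -0.35 ± 0.19 in vDG input, -0.72 ± 0.39 in the IP and 0.01 ± 0.18 in dDG input (adjusted p = 0.42, 0.49 and 0.99), and Pvrl2 of 0.05 ± 0.51 in vDG input (adjusted p = 0.98). In the interaction with region the 5 genes other than Pvrl2 and Pvrl3 had estimates from -0.37 to 0.35 (adjusted p from 0.40 to 0.72). In the interaction with fraction all 6 genes other than Pvrl2 had an adjusted p of 1.0 and no gene of the transcriptome passed (0.00% of genes; 497 had an unadjusted p under 0.05, and DESeq2 called 0), so the cKO changes in IP and input were not shown to differ. The comparisons share libraries: the vDG input groups enter the region, fraction and genotype comparisons alike.

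**Figure D4:**
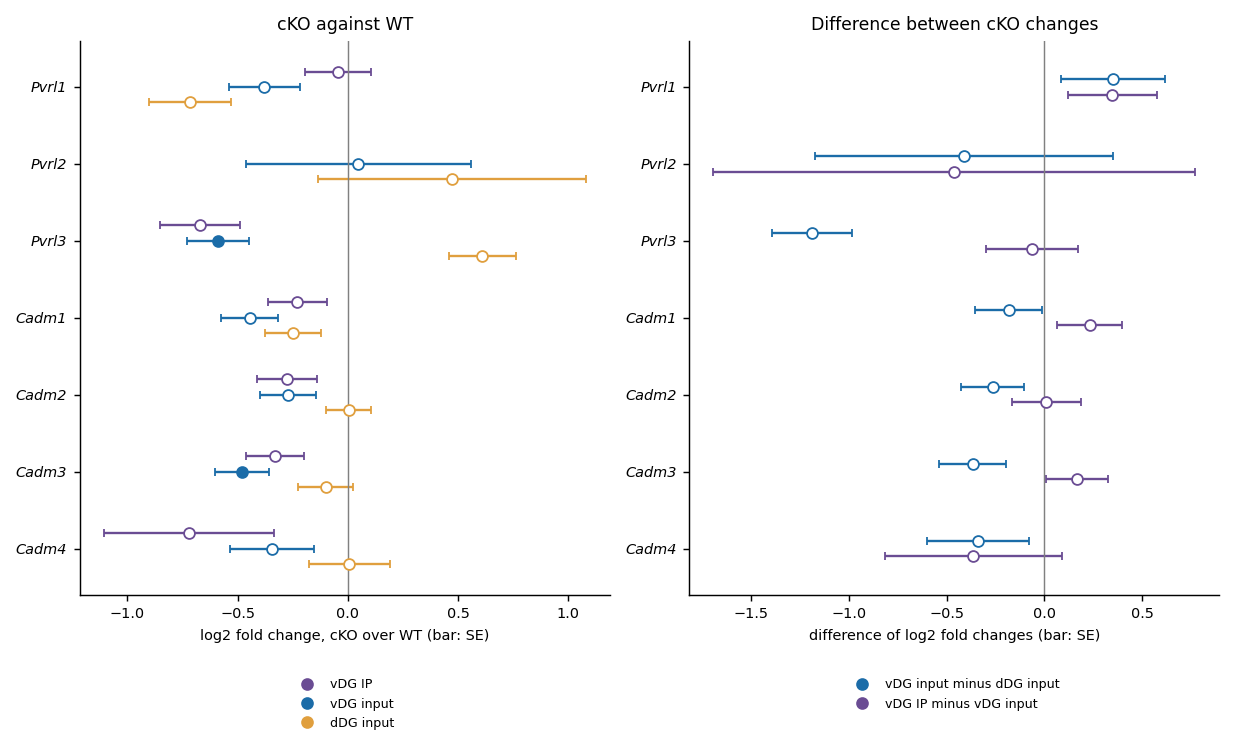
Left, log2 fold changes with SE (bars) of cKO over WT in vDG IP (purple), vDG input (blue) and dDG input (yellow); right, the difference of these changes between vDG and dDG input (blue) and between IP and input (purple). Filled points passed the test; Pvrl3 is at -0.67, -0.59 and 0.61, and its difference between regions, -1.19, lies farthest from 0. Pvrl2 rests on 0 to 25 counts a library, and in dDG input it passed the filter on low counts through the cKO alone.

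Markers of other cells moved with genotype in vDG. The summed level of the 12 astrocyte markers was 4931 to 5627 CPM in WT vDG input and 2971 to 3200 CPM in cKO vDG input, with 6 of 12 genes lower and none higher in the cKO and a median of -0.62, and 1440 to 2084 CPM against 1226 to 1239 CPM in the IP, where none of the 12 passed. Without Slc1a2, the most abundant of them, the sums were 1132 to 1322 CPM and 963.1 to 981.9 CPM in vDG input, and 294.4 to 364.2 CPM and 281.0 to 306.5 CPM in the IP, where they overlapped. In dDG input it was 4630 to 6023 CPM in WT and 3588 to 5109 CPM in the cKO, which overlapped. Granule cell markers summed to 1775 to 1991 CPM in WT and 1942 to 1943 CPM in cKO vDG input, and 1 of 12 was lower. The sums did not overlap for CA pyramidal markers (304.9 to 351.9 CPM and 255.2 to 277.8 CPM), interneuron markers (689.8 to 794.3 CPM and 572.0 to 600.0 CPM) or mossy cell markers (345.9 to 443.4 CPM and 301.2 to 321.1 CPM), with 1 of 12, 1 of 12 and 1 of 7 genes lower in the cKO and none higher, and list medians of -0.03, -0.29 and -0.09. Without Spock1, the most abundant gene of its list, the CA pyramidal sums were 107.3 to 108.6 CPM in WT and 109.6 to 110.0 CPM in the cKO, and without Gria3 the mossy cell sums were 101.2 to 127.8 CPM and 107.0 to 121.2 CPM. In the IP granule cell markers summed to 2068 to 2274 CPM in WT and 2402 to 2443 CPM in the cKO, and interneuron markers to 282.9 to 349.7 CPM and 207.2 to 214.4 CPM, with 0 of 12 and 1 of 9 tested genes called, the latter lower. The CA pyramidal markers summed to 324.7 to 435.2 CPM and 280.0 to 302.3 CPM in the IP, or to 103.3 to 120.9 CPM and 100.8 to 115.4 CPM without Spock1. In dDG input the CA pyramidal markers summed to 135.7 to 174.6 CPM in WT and 169.1 to 205.9 CPM in the cKO (median 0.22). Without Spock1 they summed to 81.4 to 98.6 CPM and 101.4 to 117.7 CPM, which did not overlap. Mossy cell markers summed to 247.6 to 289.2 CPM and 266.2 to 319.3 CPM (median -0.11), or to 38.0 to 43.3 CPM and 44.3 to 45.2 CPM without Gria3. Choroid plexus markers summed to 34.7 to 158.1 CPM and 20.9 to 27.2 CPM. No gene of these lists passed in dDG input. The 12 microglia markers summed to 51.9 to 90.9 CPM in WT and 43.3 to 47.0 CPM in cKO dDG input (median -0.53) and to 43.3 to 71.4 CPM and 31.9 to 45.0 CPM in vDG input (median -0.61); 0 of 12 passed in either, and none had a fold change above 0. Their part in the changes of Pvrl1, Pvrl3 and the SynCAM genes was not tested.

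The intracellular partners of the nectins were given by a list of 20 genes with afadin, its binding proteins, cadherin junction genes, Rap1 genes and the remaining family members Pvrl4 and Pvr. In WT vDG against dDG input 1 of the 20 was higher, Cdh2, which encodes N-cadherin (log2 fold change 0.49 ± 0.13), and 1 lower, the polarity gene Pard3 (-0.67 ± 0.14), beside 15.3% of all genes called; the median was 0.11. In the cKO none was higher and 3 were lower, beside 17.0% of all genes called: Lmo7, which binds afadin (-0.75 ± 0.13), Pard3 (-0.58 ± 0.14) and Rap1a (-0.34 ± 0.11). In the IP 3 were enriched in WT and 8 in the cKO, with none depleted, beside 7.72% and 11.4% of all genes enriched and 11.4% and 10.7% depleted. Those of WT were Lmo7 (0.74 ± 0.16), Rap1gap (0.63 ± 0.14) and Mllt4, the afadin gene (0.53 ± 0.13), and the largest of the cKO were Lmo7 (1.02 ± 0.11), the afadin-binding Sorbs2 (0.67 ± 0.10) and Rap1gap (0.53 ± 0.17). Between genotypes 1 of the 20 passed, Ctnnb1, which encodes beta-catenin (-0.51 ± 0.13 in vDG input, where 2.44% of all genes passed).

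The SynCAM partners, 18 genes of the CASK, MPP, LIN7, band 4.1 and related scaffolds, were split by region. In WT 4 were higher in vDG and 4 lower, beside 15.3% of all genes called, with a median of 0.10. The band 4.1 genes went both ways, with Epb41l3 at 0.65 ± 0.13, Epb41l2 at 0.59 ± 0.13 and Epb41 at -1.08 ± 0.12, and the membrane guanylate kinase Mpp3 was at 0.59 ± 0.13. In the cKO 3 were higher and 3 lower, beside 17.0% of all genes, with Epb41 at -1.27 ± 0.12. In the IP Dlg3 was enriched (0.54 ± 0.11 in WT), and Farp1 (-1.14 ± 0.19) and Epb41l2 (-1.05 ± 0.14) were depleted, 1 and 2 of 18 in WT, where 7.72% of all genes were enriched and 11.4% depleted. In the cKO 3 and 2 of 18 were, with 11.4% and 10.7% of all genes. Between genotypes 0 of 18 passed in each of the 3 comparisons, where 2.44% (vDG input), 0.420% (vDG IP) and 0.0325% (dDG input) of all genes did.

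Other synaptic adhesion molecules, a list of 33 genes with neurexins, neuroligins, LRRTMs, L1 family and receptor phosphatase genes, differed by region in both directions. In WT 13 were higher in vDG and 3 lower, beside 15.3% of all genes called (1427 higher and 938 lower), led by L1cam (1.56 ± 0.16), Cntnap2 (1.27 ± 0.16) and Alcam (1.16 ± 0.12) and by Lrrtm4 (-0.86 ± 0.11). In the cKO 5 were higher and 7 lower, beside 17.0% of all genes. In the IP 1 was enriched in WT, Ptprs (0.59 ± 0.12), and in the cKO 11 were enriched and 1, Igsf9b, was depleted (-1.17 ± 0.40), where 7.72% of all genes were enriched in WT and 11.4% in the cKO. In vDG input 7 of the 33 were lower in the cKO and none higher, beside 2.44% of all genes called (368 of 385 lower), with a median of -0.36, among them L1cam (-0.64 ± 0.15), Slitrk4 (-0.63 ± 0.14) and Cntnap2 (-0.58 ± 0.15); the IP and dDG input had none.

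Profiles over the 6 groups were compared by the root mean square difference of centred mean log2 CPM. Of the pairs of members without Pvrl2, whose few counts leave its profile uncertain, Cadm1 and Cadm3 were nearest (0.07) and Pvrl1 and Cadm2 farthest apart (1.17), while Pvrl1 and Pvrl3 differed by 0.50. Among 10366 other genes with a mean of 5 CPM or more, the nearest to Pvrl3 was Chrm3, a muscarinic acetylcholine receptor (0.12), and the nearest to Pvrl1 was Hap1 (0.12). Cadm1 was nearest to Nlgn2, a neuroligin of inhibitory synapses (0.05), Cadm2 to the sodium-activated potassium channel gene Kcnt2 (0.07), Cadm3 to the nicotinic receptor subunit gene Chrnb2 (0.04), and Cadm4 to Ssfa2 (0.08).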

How the data were processed

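Tissue and libraries are described above. Per the labels and the study's methods, the authors amplified RNA (Ovation V2), sequenced it on a NextSeq, aligned reads to annotated exons of mm10 with STAR 2.4.2a, removed duplicates with SAMtools 0.1.19-444 and deposited raw counts per gene from htseq-count in union mode with its other settings at default, which count reads by strand; no molecular identifiers are named. Rows that name no gene (24.7% to 37.8% of each file's counts) were left out. The deposited comparison tables (DESeq2 1.4.5 fold changes, p-values and normalized values) were not used. Each comparison was fitted on all genes left by filterByExpr with edgeR 4.0.16 (TMM, quasi-likelihood F-test, Benjamini-Hochberg adjustment; R 4.3.3), on its own groups. The interactions used 10 libraries each. SEs were derived from the F statistic. DESeq2 1.42.0, other scalings, filters and left-out libraries were alternatives, and the code was tested on simulated data. Depth was 19039295 to 30451430 counts a library, and 3 counts were taken as the floor. The members and lists were chosen with earlier results of these data known. All 7 members are named; of the lists, at most the 3 largest called genes per direction; and for each member but Pvrl2, which has few counts, the nearest non-member.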

Additional observations from a re-analysis of the deposited data

Results flagged for a closer look

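Pvrl3 was noted because its cKO change went opposite ways in the regions. The study had already reported this: it lists Nectin3 (Pvrl3) among the genes called in both inputs by DESeq2 at an FDR under 0.05. It also names the gene as changing in opposite directions. Both cKO vDG input libraries were below all WT vDG input libraries, and both cKO dDG input libraries were above all WT dDG input libraries; 3.15% of all genes tested also lay entirely on opposite sides of WT in the regions. The difference of the cKO changes was -1.19 ± 0.20 on the log2 scale (edgeR's quasi-likelihood test over 10 input libraries, adjusted p = 0.11), and DESeq2 gave -1.21 with an adjusted p of 9.99e-05. With the replicate number as a block edgeR gave -1.20 with an adjusted p of 0.028. That call was lost with the other numbering of the cKO dDG inputs, given below. No other member had cKO libraries that lay entirely on opposite sides of WT in vDG and dDG input, or in IP and input. Groups held 2 or 3 libraries, too few for the test of single outlying libraries.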

How the results depend on the processing

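Of the 62 member differences, 12 passed their threshold, and none of those 12 changed sign under any alternative; of the other 50, 17 did under at least 1. The number of members called moved as follows. For vDG against dDG in WT (main 5) it was 6 with library size alone, no count filter and the other FDR threshold, and in the cKO (main 3) 2 with all groups in one fit. For IP against input in WT (main 0) it was 1 with DESeq2, library size alone and no count filter. It was also 1 with all groups in one fit and with no limit on the fold change. With the other FDR threshold it was 2, Pvrl1 and Pvrl2. In the cKO (main 2) it was 3 with library size alone and the other FDR threshold, the added gene being Pvrl2. Pvrl2 was also the gene called in WT without WT vDG IP replicate 2. It passed the filter through input alone, so these calls of Pvrl2 follow in part from the filter. For cKO against WT in vDG IP (main 0) it was 1 with DESeq2, no count filter and all groups in one fit; in vDG input (main 2) 3 with DESeq2, no count filter and the other FDR threshold (Cadm1 added) and 1 with library size alone and all groups in one fit; in dDG input (main 0) 2 with DESeq2 and no count filter. For genotype by region (main 0) it was 1 with DESeq2 and no count filter. Leaving out 1 library gave 3 to 6 for vDG against dDG in WT, 0 to 1 for IP against input in WT, 1 to 2 for IP against input in cKO, 0 to 4 for vDG input, 0 to 1 for dDG input and 0 to 1 for genotype by region; it gave 2 to 3 for vDG against dDG in cKO and 0 for vDG IP and for genotype by fraction.

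Replicate numbers recur across groups. Input came from the homogenates of the IP, but no source ties a number to the same homogenate. Same-numbered WT libraries deviated with correlations of 0.38, -0.11 and 0.22 between vDG and dDG and of 0.46, -0.16 and -0.33 between IP and input; the cKO, where 2 libraries a group give 1 value, had 0.16 and 0.44. In WT 3 of 6 and 2 of 6 libraries were closest to their own number, so the numbers were not shown to pair the libraries. With the replicate block 6 members were called for vDG against dDG in WT (main 5) and 1 for cKO against WT in vDG input (main 2, Cadm3 lost). In dDG input and for genotype by region (main 0 in both) it was 1, Pvrl3, at 0.76 and -1.20 (edgeR, adjusted p = 0.043 and 0.028). Genes called went from 5 to 137 in dDG input and from 0 to 8 for genotype by region. These last values depend on the numbering of the cKO dDG inputs, which the titles number 1 and 2 and the deposited files 2 and 3. With the latter, a replicate block chosen after seeing the data, 2 members and 662 genes were called in dDG input (Pvrl1 at -0.59 and Pvrl3 at 0.51) and 0 members and 1 gene for genotype by region. Under the block Pvrl3 for IP against input in cKO was at -0.0069, and Cadm2 and Cadm4 for cKO against WT in dDG input at -0.038 and -0.019.

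The other values that changed sign were past no threshold. By library size alone Pvrl3 and Cadm3 were at -0.037 and -0.046 for IP against input in WT, Pvrl3 and Cadm1 at -0.17 and -0.019 in cKO, Cadm2 and Cadm4 at -0.0054 and -0.00045 for cKO against WT in dDG input, and Cadm2 at -0.058 for genotype by fraction, where DESeq2 gave -0.00715 and its size factors in edgeR -0.00715. With 10 counts in every library Pvrl3 was at -0.0396 for IP against input in cKO. Leaving out 1 library moved Pvrl2 from -0.0295 to 0.76, Cadm3 from -0.0818 to 0.23 and Cadm4 from -0.0308 to 0.30 for vDG against dDG in cKO. It moved Cadm1 from -0.0778 to 0.0072 for IP against input in WT and Pvrl3 from -0.24 to 0.26 in cKO. For cKO against WT it moved Pvrl1 from -0.23 to 0.11 in vDG IP, Pvrl2 from -0.39 to 0.39 in vDG input, and Cadm2 from -0.079 to 0.0864, Cadm3 from -0.25 to 0.0391 and Cadm4 from -0.15 to 0.16 in dDG input. For genotype by fraction it moved Pvrl2, which held 0 to 11 counts in the WT IP and 2 to 5 in the cKO IP, from -1.15 to 0.60. There it also moved Pvrl3 from -0.32 to 0.15, Cadm2 from -0.13 to 0.125 and Cadm4 from -0.90 to 0.0404.

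Genes called over the transcriptome moved by more than 1.5 times for cKO against WT, from 0 to 465 in vDG IP, 6 to 687 in vDG input and 0 to 662 in dDG input, and from 0 to 362 for genotype by region and 0 to 12 for genotype by fraction. They also went from 2642 to 1366 with all groups in one fit and to 1428 without cKO dDG input replicate 2 for vDG against dDG in cKO, from 2870 to 1682 with 10 counts in every library for IP against input in WT, and from 3342 to 1894 and 2061 without cKO vDG input replicate 1 and 2 for IP against input in cKO. Library size alone shifted the median of all genes to -0.13 and -0.20 for IP against input in WT and cKO, and the share of called genes that were higher from 40.4% to 20.3% and from 51.4% to 27.2%; for vDG against dDG in cKO that share went from 50.3% to 65.3%. The cause of these changes was not tested. Levels per kb kept their order in every group with DESeq2 size factors in place of TMM. Each cKO group held 2 libraries, and without 1 of them the remaining library is assumed to vary like the others.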
